A study of Mus musculus with 27 samples.

Results

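The chemokine ligands were followed through 27 mouse fibroblast cultures in which cardiac reprogramming and TGFβ signaling were varied. Members were taken by name: genes with a single symbol that begins with Ccl or Cxcl and a number, and Ppbp, Pf4, Cx3cl1 and Xcl1. This gave 36 of the 19938 genes measured. Where a gene had several probe sets on the array, the one with the highest mean stood for it, which applied to Ccl19 and Ccl25. A further 7 probe sets that carry several chemokine symbols, those of the Ccl21 and Ccl27 copies, were left out.

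Mouse embryonic fibroblasts (MEFs) of mixed genetic background, prepared from embryos without the heart, and adult mouse cardiac fibroblasts (CFs) were studied at Day 3. HNGMT cultures received lentiviruses for Hand2, Nkx2.5, Gata4, Mef2C and Tbx5 under a doxycycline-controlled promoter, and 0TF cultures received none of these factors. Each was kept with SB431542 (SB, 0.5 µM in MEFs and 5 µM in CFs), with 2 ng/mL TGFβ1 or with the DMSO vehicle from Day -1. SB blocks the kinases of the type I receptors Alk4, Alk5 and Alk7. The groups were thus HNGMT+SB, HNGMT+TGFβ1, HNGMT+DMSO, 0TF+SB, 0TF+TGFβ1 and 0TF+DMSO in MEFs, and HNGMT+SB, HNGMT+TGFβ1 and HNGMT+DMSO in CFs, with 3 cultures each. According to the protocol all cultures, 0TF included, also carried the rtTA transactivator and a Troponin T-GCaMP reporter, and all received 2 µg/mL doxycycline. The labels name the 0TF cultures both as empty vector and as not treated with factors, and CFs without factors were not analysed here.

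Chemokines are small secreted or membrane-anchored proteins that direct the migration of leukocytes and other cells by binding G protein-coupled receptors. They are named by the spacing of their first cysteines as CC, CXC, CX3C and C ligands, and many lie in gene clusters. Fibroblasts produce several of them, often under the control of NF-κB or interferon signaling, and TGFβ is known both as an inducer and as a suppressor of individual members. CXC ligands that bind CXCR2 attract neutrophils, CCR2 ligands attract monocytes and CXCR3 ligands attract activated T cells.

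The sequence upstream of the start was available for 25 of the 36 genes from RefSeq (GRCm38.p6) and was searched on both strands over 250 bases. Of the members whose levels moved most with SB, TGFβ1 or HNGMT, 5 with such a window are printed to show which of 4 short patterns each holds. Capitals mark the matches. The κB-like pattern was GGNNTTTCC, found in promoters that NF-κB binds. The interferon-response-like pattern was GAAANNGAA, which resembles the sites of interferon-regulated factors. The Smad-like pattern was CAGACA, a core that the Smad proteins of the TGFβ pathway can bind. The TATA box was searched as TATAAA, the site at which the basal machinery assembles. Each runs 5′ to 3′ on the strand of the gene and ends at the base before the start that was used. For Ccl17 and Cxcl14 this start lies inside the listed span of the gene (chr8:94809380-94812038 and chr13:56288643-56296811). Their windows thus lie within the gene and not upstream of it.
Ppbp, chr5:90768268-90768517, plus strand: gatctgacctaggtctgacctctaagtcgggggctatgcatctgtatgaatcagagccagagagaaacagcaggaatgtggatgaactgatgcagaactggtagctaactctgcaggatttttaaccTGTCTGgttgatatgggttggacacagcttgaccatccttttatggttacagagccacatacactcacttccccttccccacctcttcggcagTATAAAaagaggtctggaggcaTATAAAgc
Cxcl15, chr5:90794284-90794533, plus strand: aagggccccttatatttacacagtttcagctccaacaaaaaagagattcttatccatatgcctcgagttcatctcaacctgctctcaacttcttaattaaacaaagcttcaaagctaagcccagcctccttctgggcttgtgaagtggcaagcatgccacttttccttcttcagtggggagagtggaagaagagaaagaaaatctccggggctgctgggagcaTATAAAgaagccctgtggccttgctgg
Cxcl14, chr13:56296552-56296801, minus strand: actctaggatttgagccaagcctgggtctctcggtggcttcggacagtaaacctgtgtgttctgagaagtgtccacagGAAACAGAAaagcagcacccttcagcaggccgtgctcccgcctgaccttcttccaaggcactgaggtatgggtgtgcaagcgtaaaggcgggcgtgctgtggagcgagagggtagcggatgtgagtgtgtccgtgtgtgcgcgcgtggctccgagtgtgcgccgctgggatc
Ccl17, chr8:94810203-94810452, plus strand: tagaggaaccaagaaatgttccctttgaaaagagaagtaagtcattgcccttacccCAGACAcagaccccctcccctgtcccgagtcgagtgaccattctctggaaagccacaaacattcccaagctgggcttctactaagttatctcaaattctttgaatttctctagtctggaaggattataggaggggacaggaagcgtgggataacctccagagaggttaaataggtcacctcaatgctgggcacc
Cxcl10, chr5:92348890-92349139, minus strand: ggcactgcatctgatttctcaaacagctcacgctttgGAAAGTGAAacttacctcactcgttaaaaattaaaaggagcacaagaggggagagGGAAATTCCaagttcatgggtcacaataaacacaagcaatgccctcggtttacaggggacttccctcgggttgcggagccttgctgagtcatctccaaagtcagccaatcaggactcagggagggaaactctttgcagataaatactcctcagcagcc

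The Ppbp window held a Smad-like match on the opposite strand and a pair of TATA boxes. Cxcl15 held a single TATA box, Cxcl14 an interferon-response-like match, Ccl17 a Smad-like match, and Cxcl10 both an interferon-response-like and a κB-like match, with the κB-like match on the opposite strand. Over the 26 windows of the 25 genes (1 gene, Ccl25, has more than 1), 7 held a κB-like match, 6 an interferon-response-like match, 5 a Smad-like match and 10 a TATA box. Among all 32851 windows of the same length these shares were 4.93%, 7.13%, 17.1% and 12.4%. No matches overlapped in the windows shown. A match is a run of letters and was not tested for binding.

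All arrays were of total RNA, and the values are log2 intensities as deposited. They rank cultures for a given gene but do not rank genes against each other exactly. Percentiles over all genes are given only as a rough mark of dim signal. MEF and CF arrays had medians of 7.83 to 7.91 and 7.36 to 7.43, so levels of ligands were compared only within each cell type. Marker means of both cell types are set side by side without a test. Fibroblast markers averaged 12.01 to 13.38 in MEF and 10.88 to 11.31 in CF cultures, while 8 endothelial markers averaged 6.95 to 7.44 in MEF and 9.38 to 11.15 in CF cultures. CF cultures thus held endothelial transcripts beside those of fibroblasts. The 11 measured markers of leukocytes, the usual source of many chemokines, averaged 7.05 to 7.48 in MEFs and 6.63 to 6.94 in CFs. Among them Lyz2 reached 9.61 and Cd68 reached 9.17 in 0TF MEFs. In CFs Cd68 was 7.92 to 8.79 with SB, 7.79 to 7.88 with TGFβ1 and 7.84 to 7.98 with DMSO. The part of leukocytes in the chemokine levels was not tested. Differences in bulk RNA cannot tell fewer cells of a type apart from less RNA per cell.

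One culture stood apart. CF HNGMT+SB replicate 3 had an endothelial marker mean of 9.38 against 11.15 as the highest of its group, and its chemokine values differed from those of the other SB cultures. Changes of ligands within CFs that were called with or without it are given both ways. For the receptors, interferon-response genes and markers, CF changes are given only with it included. The plot of CF cultures gives its values beside the others.

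**Figure D1:**
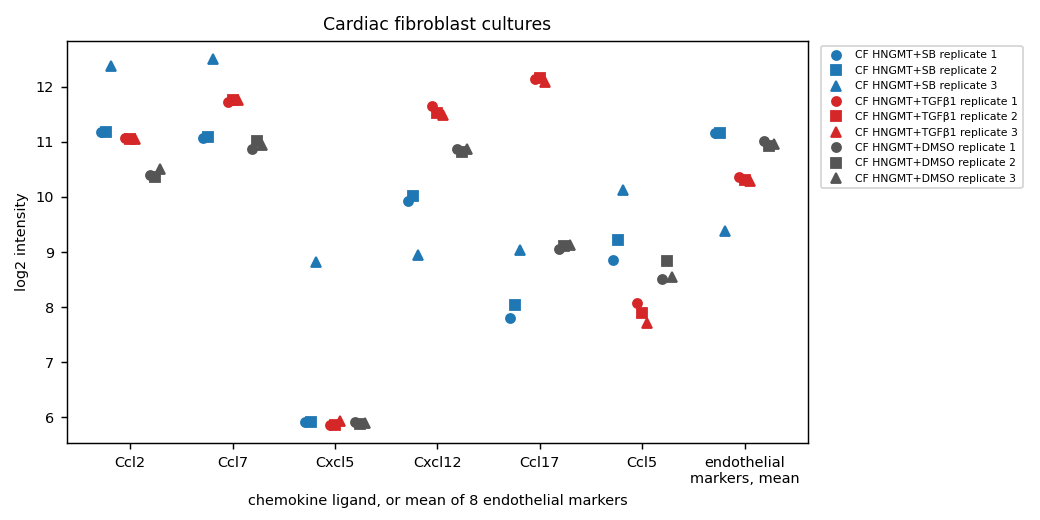
Log2 intensity (vertical axis) of 6 chemokine ligands and the mean of 8 endothelial markers (horizontal axis) in each CF culture. SB cultures are blue, TGFβ1 red and DMSO grey, with circles, squares and triangles for replicates 1, 2 and 3. Beside the other blue points, the blue triangle is high for Ccl2, Ccl7, Cxcl5, Ccl17 and Ccl5 and low for Cxcl12 and the endothelial mean.

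A gene was called when its Benjamini-Hochberg adjusted p over all genes in limma was under 0.05 and its change at least 1.5-fold (0.585 on the log2 scale), or 0.322 on the log2 scale for comparisons within CFs. Of the 36 ligands, 17 were called in at least 1 of the 12 comparisons and 19 in none. The share of all genes called in at least 1 comparison was not counted, so the 17 cannot be set against it. With SB against DMSO in HNGMT MEFs, 5 ligands were called while 0.823% of all genes were. Of these 1 was raised (0.391% of all genes) and 4 were lowered (0.431%). In 0TF MEFs SB called 5, beside 2.4% of all genes, with 1 raised (1.26%) and 4 lowered (1.13%). TGFβ1 against DMSO called 9 in HNGMT MEFs, beside 5.77% of all genes, with 5 raised (2.23%) and 4 lowered (3.54%). In 0TF MEFs TGFβ1 called 11, beside 10.4%, with 5 raised (4.21%) and 6 lowered (6.19%). The members' shares were 13.9% for SB in HNGMT and in 0TF MEFs, 25% for TGFβ1 in HNGMT MEFs and 30.6% for TGFβ1 in 0TF MEFs, so that a larger part of the ligands than of all genes passed in each. Their median log2 changes in the same order were 0.02, -0.05, 0.04 and -0.03, beside 0.01, -0.01, 0.02 and 0.05 over all genes, with members on both sides of 0.

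For HNGMT against 0TF, 6 ligands were called in DMSO, where 9.08% of all genes were, with 1 raised (4.56%) and 5 lowered (4.51%). In SB the factors called 8, beside 9.85%, with 4 raised (5.04%) and 4 lowered (4.81%). In TGFβ1 they called 9, beside 10.3%, with 3 raised (6.37%) and 6 lowered (3.88%). The response to SB depended on HNGMT in MEFs for 4 ligands, beside 1.96% of all genes, higher for 2 (0.893%) and lower for 2 (1.06%). The response to TGFβ1 did so for 8, beside 7.45%, higher for 5 (4.68%) and lower for 3 (2.77%).

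Markers of several cell types moved with the factors and with SB in MEFs. HNGMT raised 4 of 5 cardiomyocyte markers in DMSO, 5 in SB and 4 in TGFβ1. Their mean was 10.8 to 10.88 in HNGMT+DMSO and 7.89 to 8.08 in 0TF+DMSO cultures, 11.15 to 11.5 in HNGMT+SB and 7.65 to 7.87 in 0TF+SB cultures, and 10.63 to 10.7 in HNGMT+TGFβ1 and 8.01 to 8.11 in 0TF+TGFβ1 cultures. Of 8 fibroblast markers HNGMT lowered 4 in DMSO, 5 in SB and 4 in TGFβ1. Their mean was 12.77 to 12.8 in HNGMT+DMSO and 13.3 to 13.34 in 0TF+DMSO cultures, 12.7 to 12.76 in HNGMT+SB and 13.33 to 13.38 in 0TF+SB cultures, and 12.01 to 12.12 in HNGMT+TGFβ1 and 12.7 to 12.82 in 0TF+TGFβ1 cultures. Of the 11 leukocyte markers, HNGMT lowered Lyz2 in DMSO, Lyz2 and Fcer1g in SB, and Lyz2 and Cd68 in TGFβ1, where it raised Cd14 and Csf1r. With SB in 0TF MEFs 6 of 6 adipocyte markers were raised, with a mean of 11.23 to 11.31 in 0TF+SB and 8.03 to 8.08 in 0TF+DMSO cultures, and with SB in HNGMT MEFs 2 were, with a mean of 8.1 to 8.24 in HNGMT+SB and 7.75 to 7.85 in HNGMT+DMSO cultures. In SB, HNGMT lowered all 6. The part of these cells was not tested, neither in the HNGMT results nor in the 0TF+SB results of Ppbp, Cxcl15, Ccl7, Cxcl14 and Ccl11.

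In CFs, TGFβ1 called 3 ligands, beside 5.32% of all genes, with 3 raised (3.11%) and 0 lowered (2.2%) in limma. Before adjustment 5 were higher and 2 lower at p under 0.05, which 4329 of all 19938 genes passed in either direction. SB called 0 ligands in CFs with limma, beside 0.241% of all genes (0.0451% raised, 0.196% lowered). Before adjustment 3 were higher and 2 lower, while 1240 of all 19938 genes passed in either direction. The calls for CFs thus differ from those of the paper, made with other software. It lists Ccl5 as raised and Ccl17 as lowered by SB with HNGMT in both cell types. When CF HNGMT+SB replicate 3 was left out, SB raised 1 ligand and lowered 2, beside 1.89% of all genes, and TGFβ1 raised 6 and lowered 2, beside 10.8%. The TGFβ1 effect differed between CFs and MEFs with HNGMT for 6 ligands, beside 4.38% of all genes, higher in CFs for 4 (2.68%) and lower for 2 (1.7%), and without that culture it was again higher for 4 and lower for 2. SB and TGFβ1 comparisons share their DMSO cultures.

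**Figure D2:**
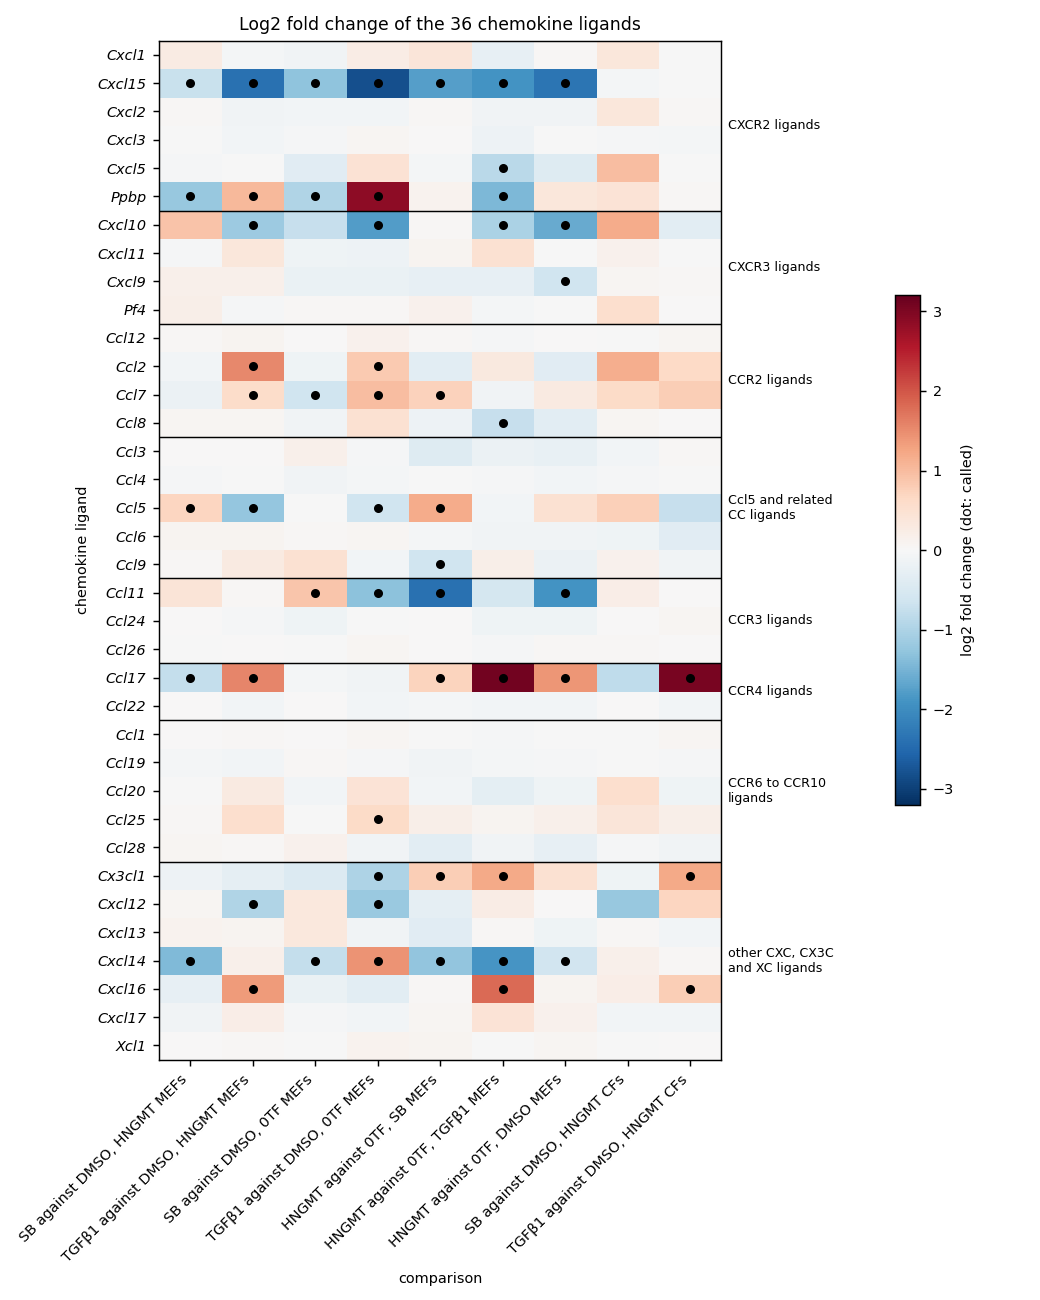
Log2 fold change (colour, red for higher and blue for lower) of each of the 36 chemokine ligands (rows, in groups named at the right) in 9 comparisons (columns). Black dots mark calls. Ppbp, Cxcl15, Cxcl14 and Ccl17 carry calls in 5 to 7 of the columns, and 19 rows carry none.

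The CXCR2 ligands, with which Cxcl15 was grouped by sequence class, lie side by side on chromosome 5. The order is Cxcl5, Ppbp, Pf4, Cxcl3, Cxcl15, Cxcl1 and Cxcl2, with the CXCR3-binding Pf4 among them. Ppbp, the precursor of the neutrophil-activating Cxcl7 best known from platelets, moved opposite ways with SB and TGFβ1 in MEFs. In 0TF MEFs it was 8.07, 7.72 and 7.86 with SB, 11.61, 11.79 and 11.76 with TGFβ1 and 8.85, 8.9 and 8.79 with DMSO. In HNGMT MEFs it was 8.11, 8.18 and 7.71 with SB, 10.23, 10.44 and 10.14 with TGFβ1 and 9.32, 9.11 and 9.23 with DMSO. The 3 groups did not overlap in either setting, with every SB culture below and every TGFβ1 culture above DMSO. TGFβ1 raised Ppbp by 2.87 ± 0.11 (SE, adjusted p = 4.35e-13) on the log2 scale in 0TF MEFs and by 1.05 ± 0.11 (SE, adjusted p = 6.09e-07) in HNGMT MEFs, and the TGFβ1 effect with HNGMT minus that in 0TF was -1.82 ± 0.16 (SE, adjusted p = 7.1e-08). SB lowered it with a log2 change of -0.97 ± 0.11 (SE, adjusted p = 3.86e-06) in 0TF and -1.22 ± 0.11 (SE, adjusted p = 7.65e-07) in HNGMT MEFs. In TGFβ1 it was lower with HNGMT, with a log2 change of -1.45 ± 0.11 (SE, adjusted p = 4.6e-09). The SB effects differed by -0.26 ± 0.16 (SE, adjusted p = 0.456), which did not pass. In CFs Ppbp was 5.55 to 5.67 in 8 cultures and 6.91 in HNGMT+SB replicate 3. The TGFβ1 effect in CFs minus that in MEFs was -1.0 ± 0.30 (SE, adjusted p = 0.0269), and it was not called without MEF HNGMT+DMSO replicate 2 (-0.95, adjusted p = 0.0612), MEF HNGMT+TGFβ1 replicate 2 (-0.91, adjusted p = 0.0708), CF HNGMT+TGFβ1 replicate 2 (-0.99, adjusted p = 0.0526) or CF HNGMT+TGFβ1 replicate 3 (-0.99, adjusted p = 0.0516). Defining platelet and mast cell genes (4 measured) averaged 7.06 to 7.18 in 0TF+TGFβ1 and 6.97 to 7.09 in 0TF+DMSO cultures, and 7.72 to 7.8 in HNGMT+TGFβ1 and 7.29 to 7.34 in HNGMT+DMSO cultures, where TGFβ1 raised 1 of the 4, Mcpt4. Their part was not tested.

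Cxcl15, a neutrophil attractant described in the mouse lung, was lower with either molecule and with the factors. It was 10.02, 9.73 and 9.86 with SB, 7.84, 8.44 and 8.81 with TGFβ1 and 11.25, 11.08 and 11.16 with DMSO in 0TF MEFs. In HNGMT MEFs the values were 8.13, 8.22 and 7.97 with SB, 6.32, 6.58 and 6.45 with TGFβ1 and 8.84, 8.99 and 8.65 with DMSO. No groups overlapped within either setting, and each HNGMT group lay below its 0TF counterpart. TGFβ1 lowered Cxcl15 with a log2 change of -2.8 ± 0.17 (SE, adjusted p = 1.39e-10) in 0TF and -2.38 ± 0.17 (SE, adjusted p = 2.87e-09) in HNGMT MEFs. SB lowered it with a log2 change of -1.29 ± 0.17 (SE, adjusted p = 1.42e-05) in 0TF and -0.72 ± 0.17 (SE, adjusted p = 0.0106) in HNGMT MEFs, the last losing its call without MEF HNGMT+DMSO replicate 2, at -0.63, adjusted p = 0.0615. HNGMT lowered it with a log2 change of -1.76 ± 0.17 (SE, adjusted p = 7.49e-08) in SB, -1.91 ± 0.17 (SE, adjusted p = 2.44e-08) in TGFβ1 and -2.34 ± 0.17 (SE, adjusted p = 1.94e-09) in DMSO. In the 9 CF cultures it stayed between 5.18 and 5.32, at the 5.8th percentile of all genes, and changed by -0.02 ± 0.04 (SE, adjusted p = 0.909) with TGFβ1. The TGFβ1 effect in CFs minus that in MEFs was 2.36 ± 0.21 (SE, adjusted p = 2.92e-08).

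The neighbours moved less. Cxcl5, an epithelial and stromal neutrophil attractant, was 10.28, 10.59 and 10.7 with TGFβ1 in 0TF MEFs, against 10.13, 9.98 and 10.1 with DMSO, a difference of 0.46 ± 0.08 (SE, adjusted p = 0.000178) that lay under the fold threshold. In TGFβ1 it was lower with HNGMT, at 9.66, 9.71 and 9.61 with a log2 change of -0.86 ± 0.08 (SE, adjusted p = 1.12e-07), a call lost when all 27 arrays shared 1 fit (-0.86, adjusted p = 0.121). In CFs it was 5.86 to 5.94 in 8 cultures and 8.82 in HNGMT+SB replicate 3, and the CF HNGMT+SB SD of 1.67 entered the fit of all 27 arrays. Cxcl1, Cxcl2 and Cxcl3, the GRO-type ligands with κB-like matches in their windows, were called nowhere. Within this run of genes the calls thus fell on Ppbp and Cxcl15 and, for 1 comparison, on Cxcl5.

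**Figure D3:**
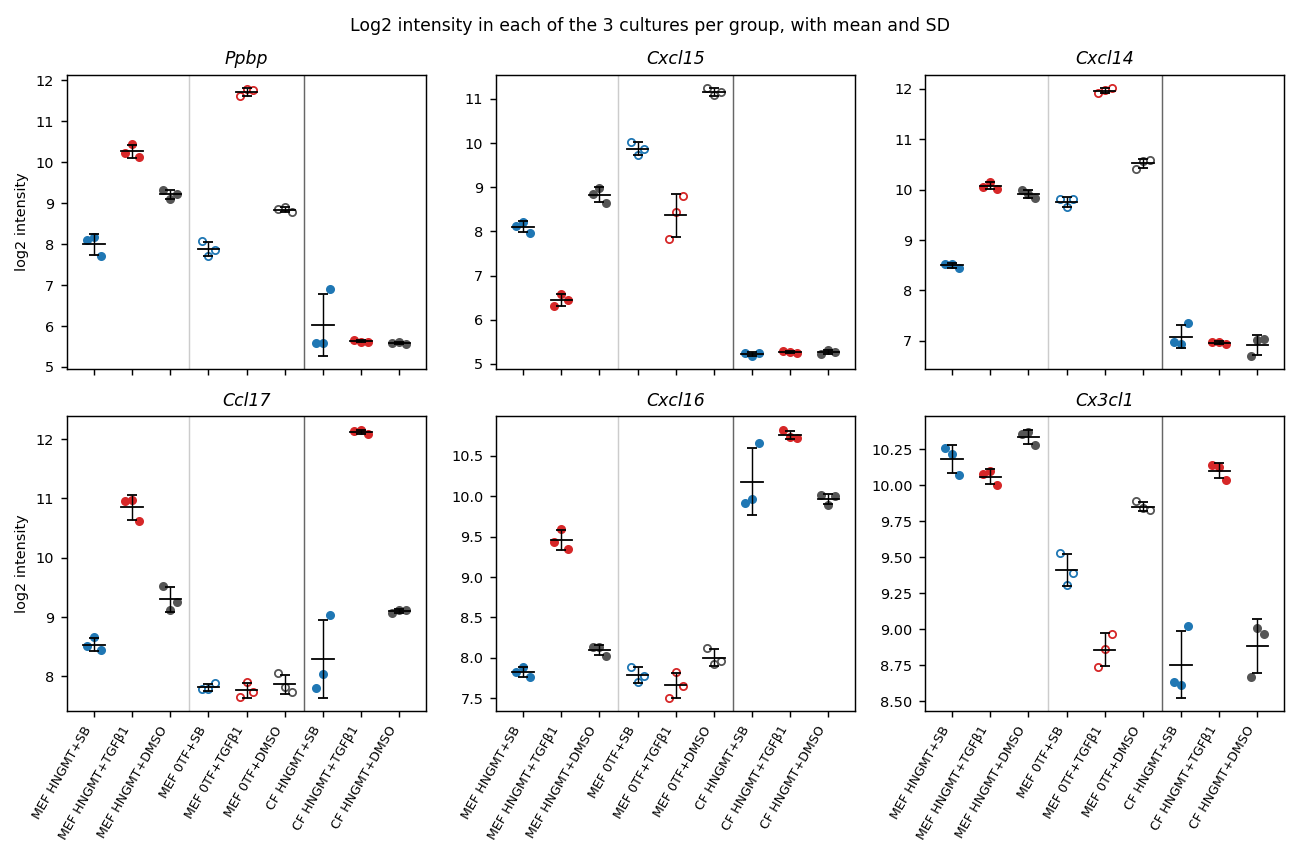
Log2 intensity (vertical axis) of Ppbp, Cxcl15, Cxcl14, Ccl17, Cxcl16 and Cx3cl1 in the 9 groups (horizontal axis). Points are single cultures (filled with HNGMT, open without; blue SB, red TGFβ1, grey DMSO), lines their mean and bars the SD of 3. Ppbp in 0TF+TGFβ1 MEFs is above 11.6 in all 3 cultures, and Ccl17 in 0TF MEFs stays between 7.66 and 8.05 with each molecule.

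Among the CXCR3 ligands, Cxcl10, an interferon-induced attractant of T cells, was the only member called with TGFβ1. It was 10.25, 10.68 and 9.23 with SB, 9.42, 8.58 and 9.05 with TGFβ1 and 10.94, 11.18 and 10.26 with DMSO in 0TF MEFs. HNGMT MEFs had 10.05, 10.07 and 10.13 with SB, 8.39, 8.0 and 7.63 with TGFβ1 and 9.21, 9.08 and 9.23 with DMSO. Cultures of a group spread widely in all 0TF groups and in HNGMT+TGFβ1, yet TGFβ1 cultures lay below DMSO cultures without overlap. TGFβ1 lowered Cxcl10 with a log2 change of -1.78 ± 0.30 (SE, adjusted p = 7.54e-05) in 0TF and -1.17 ± 0.30 (SE, adjusted p = 0.00477) in HNGMT MEFs. SB gave -0.74 ± 0.30 (SE, adjusted p = 0.116) in 0TF and 0.91 ± 0.30 (SE, adjusted p = 0.0836) in HNGMT MEFs, neither called. The difference of these SB effects was called at 1.65 ± 0.42 (SE, adjusted p = 0.019) but not without MEF 0TF+DMSO replicate 1 (1.57, adjusted p = 0.0524), without replicate 2 of that group (1.45, adjusted p = 0.0583) or with a robust variance trend (1.65, adjusted p = 0.0589).

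HNGMT lowered Cxcl10 with a log2 change of -1.62 ± 0.30 (SE, adjusted p = 0.00023) in DMSO and -1.01 ± 0.30 (SE, adjusted p = 0.0106) in TGFβ1. The call in TGFβ1 was lost without MEF 0TF+TGFβ1 replicate 1 (-0.81, adjusted p = 0.0606) or MEF HNGMT+TGFβ1 replicate 3 (-0.82, adjusted p = 0.0575). Cxcl9, its interferon-γ-induced relative, was 7.75, 7.61 and 7.74 in HNGMT+DMSO MEFs, against 8.34, 8.61 and 8.06 in 0TF+DMSO MEFs, without overlap. It fell with a log2 change of -0.64 ± 0.13 (SE, adjusted p = 0.000388), and without MEF 0TF+DMSO replicate 2 the change was under the fold threshold (-0.51, adjusted p = 0.00315). Cxcl11, which RefSeq lists as a transcribed pseudogene in the reference genome, and the platelet factor Pf4 were called nowhere.

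Other interferon-response genes fell with TGFβ1 in MEFs. Of 13 measured, TGFβ1 lowered 13 in 0TF MEFs with a median log2 change of -2.83, and 10 in HNGMT MEFs with a median of -1.26. First among them by p was Oas2, which senses double-stranded RNA, at -3.27 ± 0.09 (SE, adjusted p = 5.75e-15) in 0TF and -1.76 ± 0.09 (SE, adjusted p = 7.13e-11) in HNGMT MEFs. Their mean was 8.66 to 9.1 in 0TF+TGFβ1 and 11.22 to 11.62 in 0TF+DMSO cultures, and 8.75 to 9.66 in HNGMT+TGFβ1 and 10.41 to 10.44 in HNGMT+DMSO cultures. SB raised none of the 13 with limma in HNGMT MEFs. There 2 were higher at an unadjusted limma p under 0.05, which 3464 of all 19938 genes passed in either direction. HNGMT against 0TF lowered 7 and raised 0 in DMSO (median -0.95) and lowered 3 and raised 1 in SB (median -0.36). In TGFβ1, where HNGMT lowered Cxcl10, it lowered 0 of the 13 with limma and raised 2, with a median of 0.19. In that comparison 0 were lower and 5 higher at an unadjusted limma p under 0.05, which 10071 of all 19938 genes passed in either direction. The Cxcl10 call there was lost without MEF 0TF+TGFβ1 replicate 1 or MEF HNGMT+TGFβ1 replicate 3, and its relation to these genes was not tested.

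In CFs Cxcl10 was 9.44, 8.85 and 10.23 with SB, 8.29, 7.9 and 7.73 with TGFβ1 and 8.22, 8.37 and 8.37 with DMSO. Every SB culture lay above every DMSO culture. The SB change of 1.19 ± 0.31 (SE, adjusted p = 0.307) was not called, nor was it without SB replicate 3, at 0.83 ± 0.20 (SE, adjusted p = 0.0796). TGFβ1 gave -0.34 ± 0.31 (SE, adjusted p = 0.645), also not called. Of the 13 interferon-response genes, TGFβ1 lowered 3 in CFs, beside 2.2% of all genes. SB called 0 of them with limma in CFs, with a median log2 change of 0.46. With SB 6 were higher at an unadjusted limma p under 0.05, which 1240 of all 19938 genes passed in either direction. The part of the interferon genes in the change of Cxcl10 was not tested.

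The monocyte attractants Ccl2 and Ccl7, which bind CCR2 and are neighbours on chromosome 11, were higher with TGFβ1 in both MEF settings. Ccl2 was 11.86, 12 and 12.17 with TGFβ1 in 0TF MEFs, against 11.25, 11.12 and 11.12 with DMSO, and 12.39, 12.34 and 12.26 with TGFβ1 in HNGMT MEFs, against 10.84, 10.71 and 10.82 with DMSO. The groups did not overlap. TGFβ1 raised Ccl2 by 0.85 ± 0.07 (SE, adjusted p = 1.64e-08) in 0TF and by 1.54 ± 0.07 (SE, adjusted p = 1.58e-11) in HNGMT MEFs, and its effect was larger with HNGMT by 0.69 ± 0.10 (SE, adjusted p = 3.79e-05), a call lost when all 27 arrays shared 1 fit (0.69, adjusted p = 0.065). SB changed it by -0.13 ± 0.07 (SE, adjusted p = 0.298) in 0TF and -0.08 ± 0.07 (SE, adjusted p = 0.689) in HNGMT MEFs, neither called.

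Ccl7 was 11.39, 11.09 and 11.19 with SB, 12.7, 12.89 and 12.96 with TGFβ1 and 11.89, 11.87 and 11.81 with DMSO in 0TF MEFs, with no overlap between the groups. With HNGMT the MEF values were 11.88, 12.01 and 11.98 with SB, 12.77, 12.7 and 12.74 with TGFβ1 and 12.22, 12.08 and 12.12 with DMSO, again without overlap. TGFβ1 raised it by 0.99 ± 0.07 (SE, adjusted p = 1.76e-09) in 0TF and 0.60 ± 0.07 (SE, adjusted p = 2.51e-06) in HNGMT MEFs, and SB lowered it in 0TF MEFs, with a log2 change of -0.63 ± 0.07 (SE, adjusted p = 2.81e-06). The HNGMT call for TGFβ1 is close to the fold threshold. It was not made without HNGMT+DMSO replicate 2 (0.566, adjusted p = 2.99e-05), HNGMT+DMSO replicate 3 (just under 1.5-fold) or HNGMT+TGFβ1 replicate 1 (0.582, adjusted p = 2.13e-05). The SB call was not made without 0TF+SB replicate 2 (-0.567, adjusted p = 2.43e-05) or with all 27 arrays in 1 fit (-0.63, adjusted p = 0.0653). In SB, Ccl7 was higher with HNGMT by 0.73 ± 0.07 (SE, adjusted p = 1.11e-07).

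Ccl8, which in the mouse acts mainly through CCR8, was 6.13, 6.03 and 6.11 in HNGMT+TGFβ1 MEFs, against 6.58, 6.93 and 7.0 in 0TF+TGFβ1 MEFs. It was dim, at the 15.9th percentile, and was lower with HNGMT with a log2 change of -0.75 ± 0.08 (SE, adjusted p = 7.3e-07). Ccl12, the mouse MCP-5, was called nowhere.

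In CFs, Ccl2 was 11.18, 11.18 and 12.38 with SB, 11.06, 11.05 and 11.05 with TGFβ1 and 10.39, 10.36 and 10.51 with DMSO, so that both molecules lay above DMSO without overlap. The fit gave 1.16 ± 0.29 (SE, adjusted p = 0.277) for SB and 0.63 ± 0.29 (SE, adjusted p = 0.253) for TGFβ1, neither called. Without CF HNGMT+SB replicate 3 both were called, at 0.76 ± 0.05 (SE, adjusted p = 0.000263) and 0.63 ± 0.04 (SE, adjusted p = 2.87e-05). Ccl7 was 11.72, 11.76 and 11.75 with TGFβ1 in CFs, against 10.87, 11.01 and 10.94 with DMSO, and its change of 0.80 ± 0.34 (SE, adjusted p = 0.213) became 0.80 ± 0.04 (SE, adjusted p = 8.91e-06) without that culture. The TGFβ1 effect on Ccl2 in CFs minus that in MEFs was -0.91 ± 0.26 (SE, adjusted p = 0.0209), which did not pass without CF HNGMT+DMSO replicate 3 (-0.86, adjusted p = 0.0507). Endothelial markers averaged 10.28 to 10.36 with TGFβ1 and 10.92 to 11.02 with DMSO in CFs, and their part in this and the other TGFβ1 results of CFs was not tested.

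Ccl5 (RANTES), which attracts T cells and monocytes, was 8.81, 8.69 and 8.79 with TGFβ1 in 0TF MEFs, against 9.26, 9.6 and 9.38 with DMSO. In HNGMT MEFs it was 10.53, 10.67 and 10.54 with SB, 8.65, 8.75 and 8.6 with TGFβ1 and 9.89, 9.88 and 9.94 with DMSO. The HNGMT groups were ordered SB over DMSO over TGFβ1 without overlap. TGFβ1 lowered it with a log2 change of -1.24 ± 0.07 (SE, adjusted p = 1.62e-10) in HNGMT and -0.65 ± 0.07 (SE, adjusted p = 3.4e-07) in 0TF MEFs, the 0TF change being close to the fold threshold and not called without 0TF+DMSO replicate 2 (-0.56, adjusted p = 7.5e-07) or after quantile normalization (-0.575, adjusted p = 2.5e-06). The TGFβ1 effects differed by -0.59 ± 0.10 (SE, adjusted p = 0.000133), also close to the threshold. Over the fits that left out 1 culture the difference ran from -0.69 to -0.51, and it fell short of the fold threshold without replicate 1 or 3 of 0TF+DMSO, 0TF+TGFβ1 or HNGMT+TGFβ1 or replicate 3 of HNGMT+DMSO. With all 27 arrays in 1 fit it was -0.591, adjusted p = 0.121. SB raised Ccl5 in HNGMT MEFs by 0.68 ± 0.07 (SE, adjusted p = 3.45e-06), and the 0TF+SB cultures were at 9.36, 9.34 and 9.45, overlapping DMSO. The SB effects differed by 0.70 ± 0.10 (SE, adjusted p = 9.33e-05), a call lost with all 27 arrays in 1 fit (0.70, adjusted p = 0.19). With SB, HNGMT cultures were higher than 0TF cultures by 1.2 ± 0.07 (SE, adjusted p = 1.02e-10).

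In CFs Ccl5 was 8.85, 9.21 and 10.13 with SB, 8.07, 7.9 and 7.71 with TGFβ1 and 8.51, 8.83 and 8.55 with DMSO. SB cultures lay above and TGFβ1 cultures below every DMSO culture. The SB change was 0.77 ± 0.29 (SE, adjusted p = 0.679) and, without SB replicate 3, 0.40 ± 0.15 (SE, adjusted p = 0.281), neither called. The TGFβ1 change of -0.74 ± 0.29 (SE, adjusted p = 0.181) was not called in the fit of all 9 CF arrays but was called without CF HNGMT+SB replicate 3, at -0.74 ± 0.13 (SE, adjusted p = 0.00448). Ccl9, a CCR1 ligand of the mouse, was 7.51, 7.55 and 7.45 in HNGMT+SB MEFs, against 8.23, 8.03 and 8.18 in 0TF+SB MEFs, lower with a log2 change of -0.64 ± 0.07 (SE, adjusted p = 6.46e-07). Ccl3, Ccl4 and Ccl6, inflammatory CC ligands near Ccl5 and Ccl9 on chromosome 11, were called in none of the 12 comparisons. Without CF HNGMT+SB replicate 3, Ccl6 was lower with TGFβ1 in CFs with a log2 change of -0.36 ± 0.05 (SE, adjusted p = 0.00091), a change of under 1.5-fold, and with that culture the fit gave -0.36 ± 0.12 (SE, adjusted p = 0.106).

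Ccl11 (eotaxin-1), the CCR3 ligand that attracts eosinophils, was higher with SB and lower with TGFβ1 in 0TF MEFs, and lower with HNGMT in SB and in DMSO. It was 11.09, 11.07 and 11.04 with SB, 8.62, 8.91 and 9.09 with TGFβ1 and 10.16, 10.32 and 10.08 with DMSO in 0TF MEFs. HNGMT MEFs had 8.74, 8.69 and 8.64 with SB, 8.46, 8.11 and 8.38 with TGFβ1 and 8.49, 8.14 and 8.22 with DMSO. The 0TF groups did not overlap, and the TGFβ1 and DMSO cultures overlapped with HNGMT. SB raised Ccl11 by 0.88 ± 0.11 (SE, adjusted p = 1.07e-05) and TGFβ1 lowered it in 0TF MEFs, with a log2 change of -1.32 ± 0.11 (SE, adjusted p = 1.5e-08). With HNGMT the TGFβ1 change was 0.03 ± 0.11 (SE, adjusted p = 0.877), and the difference between the settings was called at 1.35 ± 0.16 (SE, adjusted p = 2.58e-06). HNGMT lowered Ccl11 with a log2 change of -2.38 ± 0.11 (SE, adjusted p = 4.62e-12) in SB and -1.9 ± 0.11 (SE, adjusted p = 1.21e-10) in DMSO. The 6 adipocyte markers moved the same way with SB in 0TF MEFs and with HNGMT in SB, and their part was not tested. Ccl24 and Ccl26, the other eotaxins, were called nowhere.

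**Figure D4:**
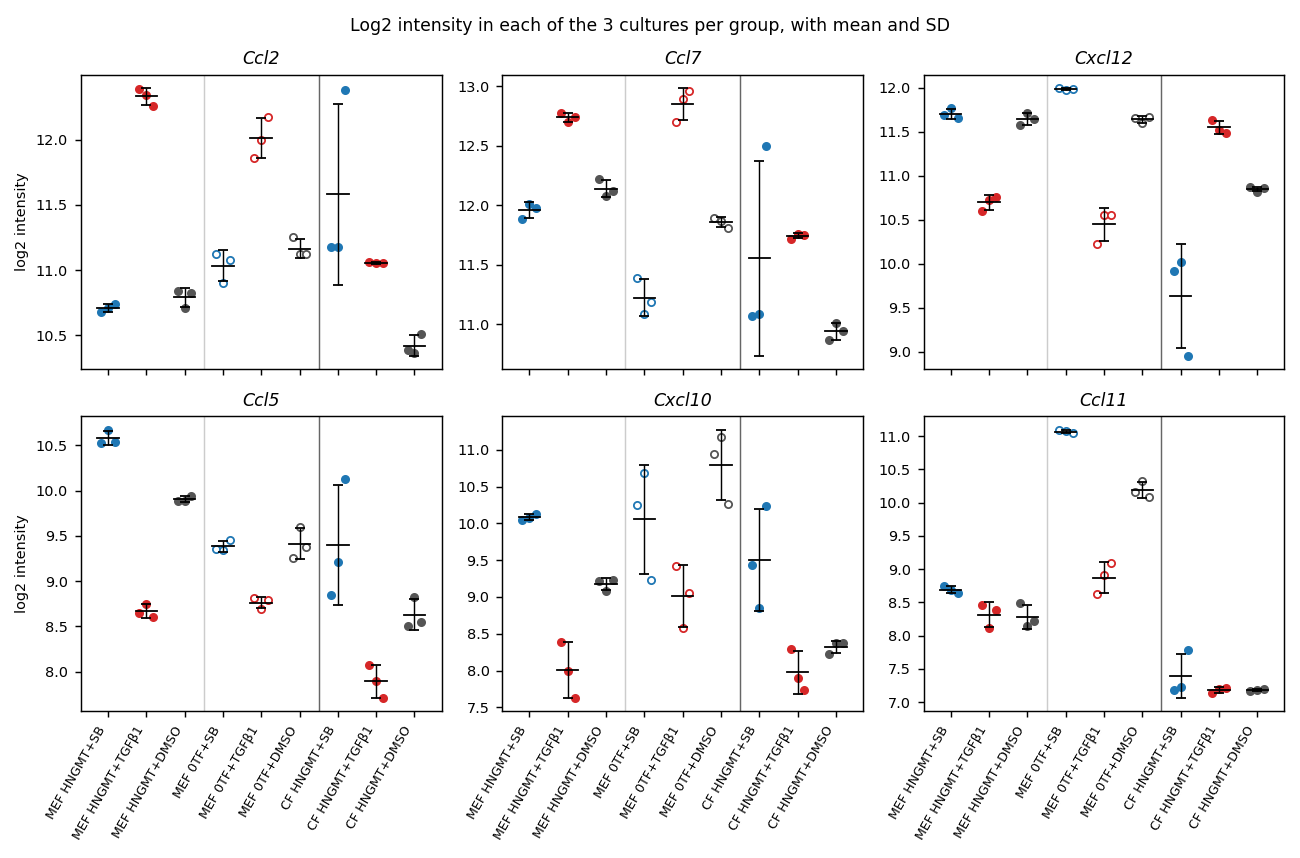
Log2 intensity (vertical axis) of Ccl2, Ccl7, Cxcl12, Ccl5, Cxcl10 and Ccl11 in the 9 groups (horizontal axis). Points are single cultures (filled with HNGMT, open without; blue SB, red TGFβ1, grey DMSO), lines their mean and bars the SD of 3. Ccl2 in MEFs is highest with TGFβ1, Cxcl12 is lowest there, and in CFs Cxcl12 is highest with TGFβ1.

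Ccl17 (TARC), which attracts CCR4-bearing T cells, had a larger response to TGFβ1 with HNGMT than without. In 0TF MEFs it was 7.78, 7.79 and 7.88 with SB, 7.66, 7.91 and 7.73 with TGFβ1 and 8.05, 7.82 and 7.74 with DMSO, and the groups overlapped. With HNGMT the MEF values were 10.96, 10.97 and 10.61 with TGFβ1, against 9.52, 9.11 and 9.26 with DMSO. In CFs it was 12.13, 12.15 and 12.09 with TGFβ1, against 9.06, 9.11 and 9.12 with DMSO. All TGFβ1 cultures with HNGMT lay above all DMSO cultures of their cell type. The TGFβ1 changes were 3.03 ± 0.27 (SE, adjusted p = 0.000506) in CFs or 3.03 ± 0.06 (SE, adjusted p = 9.9e-08) without SB replicate 3, 1.55 ± 0.11 (SE, adjusted p = 3.4e-09) in HNGMT MEFs and -0.10 ± 0.11 (SE, adjusted p = 0.479) in 0TF MEFs. The interaction with HNGMT was 1.65 ± 0.15 (SE, adjusted p = 2e-07). The effect in CFs exceeded that in MEFs by 1.48 ± 0.27 (SE, adjusted p = 0.000467), and without CF HNGMT+SB replicate 3 by 1.48, adjusted p = 5.05e-08. In TGFβ1 the HNGMT cultures were higher than 0TF cultures by 3.08 ± 0.11 (SE, adjusted p = 1.2e-13), the largest of the log2 fold changes of any ligand in the 9 comparisons of groups.

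With SB, Ccl17 was 8.51, 8.66 and 8.44 in HNGMT MEFs, below every DMSO culture, and HNGMT lifted it above 0TF cultures in SB by 0.72 ± 0.11 (SE, adjusted p = 2.66e-05) and in DMSO by 1.42 ± 0.11 (SE, adjusted p = 5.94e-09). The SB change with HNGMT was -0.76 ± 0.11 (SE, adjusted p = 0.000163), and its interaction with HNGMT, -0.70 ± 0.15 (SE, adjusted p = 0.00635), was not called with all 27 arrays in 1 fit (-0.70, adjusted p = 0.206). The SB change of Ccl17 in CFs was -0.81 ± 0.27 (SE, adjusted p = 0.554) and was not called. All 3 SB cultures, at 7.8, 8.04 and 9.04, lay below DMSO, with replicate 3 the nearest to it, and without that culture the change was called at -1.18 ± 0.07 (SE, adjusted p = 0.000212). Ccl22, the other CCR4 ligand, lies beyond Cx3cl1 from Ccl17 on chromosome 8 and was called nowhere. Of the ligands of CCR6 to CCR10, only Ccl25, a thymic and intestinal CCR9 ligand, was called. It was 8.69, 8.51 and 8.83 with TGFβ1 in 0TF MEFs, against 8.09, 8.06 and 8.07 with DMSO. It was higher by 0.60 ± 0.11 (SE, adjusted p = 0.000231), but the mean of its probe sets gave 0.45, adjusted p = 1.41e-05, and without 0TF+TGFβ1 replicate 3 the change was 0.52, adjusted p = 0.0022.

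The homeostatic ligands Cxcl12 and Cxcl14 differed in their response. Cxcl12 (SDF-1), the stromal ligand of CXCR4 and Ackr3, was 10.23, 10.55 and 10.56 with TGFβ1 in 0TF MEFs, against 11.66, 11.6 and 11.67 with DMSO. In HNGMT MEFs it was 10.6, 10.73 and 10.76 with TGFβ1, against 11.58, 11.72 and 11.65 with DMSO. TGFβ1 lowered it without overlap, with a log2 change of -1.19 ± 0.07 (SE, adjusted p = 1.15e-10) in 0TF and -0.96 ± 0.07 (SE, adjusted p = 4.97e-09) in HNGMT MEFs, and the effects differed by 0.24 ± 0.10 (SE, adjusted p = 0.0783), which was not called. Of 8 fibroblast markers, TGFβ1 lowered 4 in each MEF setting, with means of 12.7 to 12.82 in 0TF+TGFβ1 and 13.3 to 13.34 in 0TF+DMSO cultures, and their part was not tested. In CFs it was 9.92, 10.02 and 8.95 with SB, 11.64, 11.52 and 11.49 with TGFβ1 and 10.87, 10.82 and 10.86 with DMSO, with TGFβ1 highest and SB lowest. These CF changes were -1.22 ± 0.24 (SE, adjusted p = 0.135) for SB and 0.70 ± 0.24 (SE, adjusted p = 0.137) for TGFβ1, not called, and -0.88 ± 0.06 (SE, adjusted p = 0.000263) and 0.70 ± 0.05 (SE, adjusted p = 3.69e-05), both called, without SB replicate 3. The TGFβ1 effect in CFs minus that in HNGMT MEFs was 1.65 ± 0.23 (SE, adjusted p = 1.75e-05), opposite in sign between the cell types.

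Cxcl14, expressed by epithelia and stroma and without a settled receptor, was 9.82, 9.65 and 9.82 with SB, 11.91, 11.98 and 12.01 with TGFβ1 and 10.41, 10.57 and 10.58 with DMSO in 0TF MEFs. HNGMT MEFs had 8.53, 8.52 and 8.44 with SB and 10.06, 10.16 and 10.02 with TGFβ1, against 9.99, 9.92 and 9.83 with DMSO. TGFβ1 raised it by 1.45 ± 0.06 (SE, adjusted p = 1.03e-12) in 0TF MEFs, while with HNGMT the change of 0.17 ± 0.06 (SE, adjusted p = 0.0376) lay under the fold threshold. No groups overlapped within a setting. SB lowered it with a log2 change of -1.42 ± 0.06 (SE, adjusted p = 1.11e-10) in HNGMT and -0.76 ± 0.06 (SE, adjusted p = 3.51e-08) in 0TF MEFs. The TGFβ1 effects differed by -1.28 ± 0.08 (SE, adjusted p = 2.53e-09) and the SB effects by -0.66 ± 0.08 (SE, adjusted p = 3.87e-05), so that the TGFβ1 increase was smaller and the SB decrease larger with HNGMT. HNGMT lowered Cxcl14 with a log2 change of -1.27 ± 0.06 (SE, adjusted p = 6.13e-12) in SB, -1.89 ± 0.06 (SE, adjusted p = 2.62e-14) in TGFβ1 and -0.61 ± 0.06 (SE, adjusted p = 1.54e-07) in DMSO. The DMSO change is at the fold threshold, and its size was just under 1.5-fold without 0TF+DMSO replicate 2 (-0.581, adjusted p = 2.31e-06), 0TF+DMSO replicate 3 (-0.58, adjusted p = 2.33e-06) or HNGMT+DMSO replicate 3 (-0.56, adjusted p = 2.14e-06). In CFs Cxcl14 stayed between 6.7 and 7.35.

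The membrane-anchored ligands were Cxcl16, which binds CXCR6, and Cx3cl1 (fractalkine), which binds CX3CR1. Cxcl16 was 9.43, 9.6 and 9.35 with TGFβ1 in HNGMT MEFs, against 8.13, 8.14 and 8.02 with DMSO, and 7.51, 7.82 and 7.65 with TGFβ1 in 0TF MEFs, against 8.12, 7.93 and 7.96 with DMSO. TGFβ1 cultures lay above DMSO with HNGMT and below it without. TGFβ1 raised Cxcl16 by 1.36 ± 0.08 (SE, adjusted p = 2.4e-10) in HNGMT MEFs, gave -0.35 ± 0.08 (SE, adjusted p = 0.00129) under the fold threshold in 0TF MEFs, and the effects differed by 1.71 ± 0.11 (SE, adjusted p = 2.03e-09). In TGFβ1, HNGMT cultures were higher than 0TF cultures by 1.8 ± 0.08 (SE, adjusted p = 1.88e-12). In CFs it was 10.82, 10.73 and 10.72 with TGFβ1, against 10.01, 9.89 and 10 with DMSO, without overlap. This increase of 0.79 ± 0.18 (SE, adjusted p = 0.0321) was called, but not when any 1 of the 6 TGFβ1 and DMSO cultures was left out, with adjusted p of 0.0908 to 0.108 and changes of 0.75 to 0.81. Without SB replicate 3 it was 0.79 ± 0.05 (SE, adjusted p = 1.58e-05).

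Cx3cl1 was 8.74, 8.86 and 8.97 with TGFβ1 in 0TF MEFs, against 9.89, 9.84 and 9.83 with DMSO. With HNGMT the MEF values were 10.08, 10.1 and 10 with TGFβ1, against 10.36, 10.37 and 10.28 with DMSO, and in CFs 10.14, 10.13 and 10.04 with TGFβ1, against 8.67, 9.01 and 8.97 with DMSO. TGFβ1 cultures were below DMSO in both MEF settings and above it in CFs, without overlap. The changes were 1.22 ± 0.13 (SE, adjusted p = 0.00103) in CFs or 1.22 ± 0.08 (SE, adjusted p = 3.15e-05) without SB replicate 3, -0.28 ± 0.06 (SE, adjusted p = 0.00214) in HNGMT MEFs, under the fold threshold, and -1.0 ± 0.06 (SE, adjusted p = 4.82e-10) in 0TF MEFs. Both differences between settings were called, 1.5 ± 0.13 (SE, adjusted p = 3.14e-08) for CFs minus MEFs and 0.72 ± 0.09 (SE, adjusted p = 7.88e-06) for HNGMT minus 0TF. HNGMT raised Cx3cl1 by 0.78 ± 0.06 (SE, adjusted p = 1.36e-08) in SB and 1.2 ± 0.06 (SE, adjusted p = 3.26e-11) in TGFβ1.

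**Figure D5:**
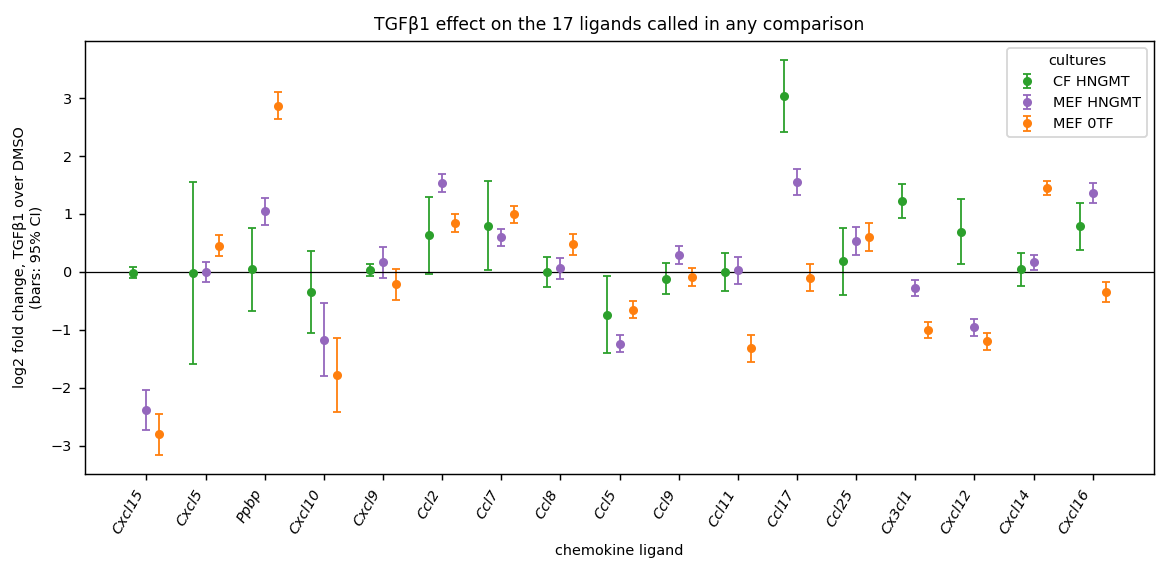
Log2 fold change of TGFβ1 over DMSO (vertical axis, bars 95% confidence intervals of the fit) for the 17 called ligands (horizontal axis) in HNGMT CFs (green), HNGMT MEFs (purple) and 0TF MEFs (orange). Ccl17 and Cxcl16 are near or below 0 in 0TF MEFs and positive with HNGMT, Cx3cl1 and Cxcl12 are positive in CFs and negative in MEFs, and Ppbp reaches 2.87 in 0TF MEFs.

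The 19 ligands never called are given by their range over the cultures. Among the CXCR2 ligands, Cxcl1 spanned 9.04 to 9.62 in MEFs and 7.52 to 8.6 in CFs, Cxcl2 spanned 5.95 to 6.27 in MEFs and 5.55 to 6.61 in CFs. Cxcl3 spanned 6.67 to 6.91 in MEFs and 6.3 to 6.63 in CFs. Among CXCR3 ligands, Cxcl11 spanned 6.87 to 7.59 in MEFs and 6.31 to 6.86 in CFs, and Pf4 spanned 5.96 to 6.28 in MEFs and 6 to 7.55 in CFs. Of the inflammatory CC ligands, Ccl12 spanned 5.8 to 6.05 in MEFs and 5.51 to 5.79 in CFs, Ccl3 spanned 6.16 to 6.78 in MEFs and 5.69 to 5.97 in CFs, Ccl4 spanned 6.71 to 6.97 in MEFs and 6.23 to 6.42 in CFs, and Ccl6 spanned 6.79 to 7.08 in MEFs and 6.82 to 7.3 in CFs. Pf4 and Cxcl2 had their highest values in CF HNGMT+SB replicate 3. Of the CCR3 and CCR4 ligands, Ccl24 spanned 6.69 to 7.09 in MEFs and 6 to 6.34 in CFs, Ccl26 spanned 6.23 to 6.4 in MEFs and 5.8 to 5.94 in CFs, and Ccl22 spanned 6.3 to 6.57 in MEFs and 5.98 to 6.28 in CFs. Of the ligands of CCR6 to CCR10, which guide lymphocytes to lymph nodes, skin and mucosa, Ccl1 spanned 6.71 to 6.94 in MEFs and 6.3 to 6.57 in CFs, Ccl19 spanned 7.55 to 7.95 in MEFs and 6.99 to 7.36 in CFs, Ccl20 spanned 6.93 to 7.68 in MEFs and 6.79 to 8.65 in CFs, and Ccl28 spanned 7.23 to 7.78 in MEFs and 6.7 to 6.98 in CFs. The B cell attractant Cxcl13 spanned 6.21 to 6.85 in MEFs and 6 to 6.34 in CFs, Cxcl17 spanned 7.61 to 8.14 in MEFs and 7.05 to 7.38 in CFs, and the C chemokine Xcl1 spanned 6.16 to 6.41 in MEFs and 5.95 to 6.26 in CFs. In MEFs 17 of them lay under the 40th percentile of all genes, and for 17 the group means spanned less than 0.5 in both cell types. The widest span was 0.61 in MEFs and 0.67 in CFs, both for Ccl20, the CCR6 ligand. Its CF values were 8.65 in HNGMT+SB replicate 3 and between 6.79 and 7.04 elsewhere.

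Of all genes, TGFβ1 raised 2.23% and lowered 3.54% in HNGMT MEFs, 4.21% and 6.19% in 0TF MEFs, and 3.11% and 2.2% in CFs. The counts of the lists that follow were not tested against these shares. Of 22 chemokine receptors measured, 1 was raised by TGFβ1 in HNGMT MEFs, 1 in 0TF MEFs and 1 in CFs, and it was Cxcr6, the receptor of Cxcl16, each time. TGFβ1 lowered 1 in 0TF MEFs, Ackr3, and 1 in CFs, Ackr4. The changes of Cxcr6 were 0.42 ± 0.05 (SE, adjusted p = 0.0018) in CFs, 1.22 ± 0.09 (SE, adjusted p = 4.89e-09) in HNGMT MEFs and 1.42 ± 0.09 (SE, adjusted p = 2.76e-10) in 0TF MEFs, and SB changed it by -0.69 ± 0.09 (SE, adjusted p = 4.22e-05) in HNGMT MEFs. Ackr3, the scavenging receptor of Cxcl12, was lower in 0TF MEFs with SB with a log2 change of -0.72 ± 0.05 (SE, adjusted p = 1.68e-08) and with TGFβ1 with one of -0.87 ± 0.05 (SE, adjusted p = 2.46e-10). Of 17 inducing cytokines and their receptors, TGFβ1 raised 3 and lowered 1 in HNGMT MEFs and raised 2 in 0TF MEFs. Il6, an inflammatory cytokine of fibroblasts, was raised in both, by 1.02 ± 0.08 (SE, adjusted p = 1.11e-08) and 1.82 ± 0.08 (SE, adjusted p = 2.07e-12). Of 15 genes of the NF-κB pathway and its feedback, TGFβ1 raised 1 in HNGMT MEFs and raised 4 and lowered 1 in 0TF MEFs. Nfkbiz, an inducible nuclear co-regulator of this pathway, changed by 0.82 ± 0.05 (SE, adjusted p = 2.28e-10) and 1.94 ± 0.05 (SE, adjusted p = 7.83e-16). Of the 11 leukocyte markers, TGFβ1 raised only Csf1r with HNGMT, by 0.97 ± 0.07 (SE, adjusted p = 9.08e-09) in MEFs and 1.37 ± 0.14 (SE, adjusted p = 0.000977) in CFs.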

How the data were processed

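RNA of 27 cultures was hybridised to Affymetrix Mouse Gene ST arrays, and the authors deposited a table of log2 intensities for 35556 probe sets, processed with MAS5 per the labels, with settings and genome build not given in the sources used here. These deposited log2 values were used without further normalization. Of the probe sets, 21789 had 1 gene symbol in the platform annotation, 1621 several and 12146 none, and each of 19938 genes was taken at its brightest probe set on average. Groups came from the labels, which do not say whether cultures of a group came from separate animals, so that p-values measure the spread between these cultures, which may be technical, and 3 arrays a group limit the precision.

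Linear models with 1 coefficient per group were fitted with limma 3.58.1 in R 4.3.3 (lmFit and eBayes) to the 18 MEF arrays, to the 9 CF arrays and, for the difference between cell types, to all 27. P-values were Benjamini-Hochberg adjusted over all genes. The study's fold limits were kept, as log2 changes of 0.585 in MEFs and 0.322 in CFs. SEs are the moderated errors of limma, and the script was tested on simulated data. Every ligand called was named with its culture values, those never called with their ranges, and up to 3 genes per other list, by adjusted p. The members and lists were chosen with earlier results of these data known. Alternatives were another set of arrays in the fit, the replicate number as a block, a variance trend with robust fitting, a filter at the 40th percentile, the mean of probe sets, quantile normalization, median centring, other fold limits and leaving out each culture. Fits of TGFβ1 in CFs without HNGMT+SB replicate 3 were added after seeing the data. Sequences upstream of the starts came from RefSeq (GRCm38.p6), for 25 of 36 members. Figures were drawn with matplotlib 3.10.9 in Python 3.11.15.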

Additional observations from a re-analysis of the deposited data

Results flagged for a closer look

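The effect of a molecule differed between settings, by the limma test of the difference, for 11 ligands. Of all genes, 7.45% were called for TGFβ1 and 1.96% for SB with HNGMT minus 0TF, and 4.38% for TGFβ1 in CFs minus MEFs. How many of all genes were called in at least 1 of these was not counted. With HNGMT minus 0TF in MEFs, the TGFβ1 effect differed by 1.35 ± 0.16 (SE, adjusted p = 2.58e-06) for Ccl11, 1.65 ± 0.15 (SE, adjusted p = 2e-07) for Ccl17, 0.69 ± 0.10 (SE, adjusted p = 3.79e-05) for Ccl2 and -0.59 ± 0.10 (SE, adjusted p = 0.000133) for Ccl5. It differed by 0.72 ± 0.09 (SE, adjusted p = 7.88e-06) for Cx3cl1, -1.28 ± 0.08 (SE, adjusted p = 2.53e-09) for Cxcl14, 1.71 ± 0.11 (SE, adjusted p = 2.03e-09) for Cxcl16 and -1.82 ± 0.16 (SE, adjusted p = 7.1e-08) for Ppbp. For Ppbp and Cxcl14 the larger change was thus without the factors, and for Ccl17 and Cxcl16 the increase was with them.

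The SB effect with HNGMT minus that in 0TF was -0.70 ± 0.15 (SE, adjusted p = 0.00635) for Ccl17, 0.70 ± 0.10 (SE, adjusted p = 9.33e-05) for Ccl5, 1.65 ± 0.42 (SE, adjusted p = 0.019) for Cxcl10 and -0.66 ± 0.08 (SE, adjusted p = 3.87e-05) for Cxcl14. The TGFβ1 effect in HNGMT CFs minus that in HNGMT MEFs was 1.48 ± 0.27 (SE, adjusted p = 0.000467) for Ccl17, -0.91 ± 0.26 (SE, adjusted p = 0.0209) for Ccl2, 1.5 ± 0.13 (SE, adjusted p = 3.14e-08) for Cx3cl1, 1.65 ± 0.23 (SE, adjusted p = 1.75e-05) for Cxcl12, 2.36 ± 0.21 (SE, adjusted p = 2.92e-08) for Cxcl15 and -1.0 ± 0.30 (SE, adjusted p = 0.0269) for Ppbp. Without CF HNGMT+SB replicate 3 the values were 1.48 (adjusted p = 5.05e-08) for Ccl17, -0.91 (adjusted p = 1.11e-07) for Ccl2, 1.5 (adjusted p = 2.55e-10) for Cx3cl1, 1.65 (adjusted p = 8.06e-12) for Cxcl12, 2.36 (adjusted p = 1.02e-08) for Cxcl15 and -1.0 (adjusted p = 8.36e-06) for Ppbp. In CFs the change with TGFβ1 was -0.02 for Cxcl15 and 0.05 for Ppbp, whose mean levels lay at the 5.8th (Cxcl15) and 14.5th (Ppbp) percentile of all genes in CFs.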

How the results depend on the processing

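Of 74 calls of a ligand in a comparison, 57 were made under every alternative that gave a value, and none changed sign. The filter at the 40th percentile removed Ccl8 and Ccl9 from the MEF fits and gave no value for them. The fold limit moved the counts of ligands most, by construction. Shares of all genes are mostly not given beside the counts here and for the alternatives that follow, so these counts cannot be set against other genes. At an unadjusted limma p under 0.05, 10411 of 19938 genes passed with TGFβ1 in 0TF MEFs and 8323 in HNGMT MEFs. Counts with no fold limit or a lower one therefore do not set the ligands apart from other genes. With no fold limit, SB raised 3 in HNGMT and 4 in 0TF MEFs, and TGFβ1 raised 11 in HNGMT and 10 in 0TF MEFs. HNGMT then raised 5 and lowered 13 in DMSO, lowered 9 in SB, and raised 8 and lowered 12 in TGFβ1. The TGFβ1 effect was then higher with HNGMT for 8 and lower for 6, and lower in CFs than in MEFs for 6. With the lower limit of 0.322 on the log2 scale in MEFs as well, SB raised 2 in HNGMT and 4 in 0TF MEFs, TGFβ1 raised 8 in 0TF MEFs, and HNGMT raised 4 and lowered 8 in DMSO, lowered 8 in SB and raised 5 in TGFβ1. The TGFβ1 effect was then lower with HNGMT for 6 and lower in CFs for 5.

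With all 27 arrays in 1 fit, the SB effect was higher with HNGMT for 1 and lower for 1, and in CFs SB raised 2 and lowered 2 while TGFβ1 raised 6 and lowered 2. That fit pools the spread of both cell types, and the changes of calls lost in it kept their size. In CF HNGMT+SB the SD was 1.67 for Cxcl5, 0.7 for Ccl2, 0.66 for Ccl5, 0.82 for Ccl7 and 0.66 for Ccl17. In the MEF groups it was at most 0.22 for these ligands. The part of CF HNGMT+SB replicate 3 in the lost calls was not tested. With a variance trend and robust fitting the SB effect was higher with HNGMT for 1. When cultures were left out in turn, the ligands raised by HNGMT in DMSO numbered 1 to 2 and those lowered 3 to 5, with 2 and 3 without MEF 0TF+DMSO replicate 2. The SB effect was higher with HNGMT for 1 to 2, with 1 without MEF 0TF+DMSO replicate 1 or 2. SB in CFs raised 0 to 1 and lowered 0 to 2, and TGFβ1 in CFs raised 2 to 6 and lowered 0 to 2, the highest in each case without CF HNGMT+SB replicate 3. Without that culture 1.89% of all genes were called with SB and 10.8% with TGFβ1. The TGFβ1 effect was lower in CFs than in MEFs for 1 to 3, with 1 without MEF HNGMT+TGFβ1 replicate 2, CF HNGMT+DMSO replicate 3 or CF HNGMT+TGFβ1 replicate 2 or 3.

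The labels number the replicates 1 to 3 in each group. After removal of group means, arrays of the same number had correlations between -0.454 and 0.585 (MEFs) or -0.248 and 0.651 (CFs). Their medians were -0.019 in MEFs and 0.088 in CFs, beside 0.012 and -0.067 for arrays of different numbers. These values do not settle whether a number marks a shared batch. With the replicate block, SB raised 1 and lowered 4 ligands in HNGMT MEFs, and no count of ligands changed. SB in CFs then called 15 genes in all, against 48 without the block. Of the arrays, 7 of 18 in MEFs and 5 of 9 in CFs correlated best with their own number. The depth of arrays is signal over background: 19 ligands in MEFs and 25 in CFs lay under the 40th percentile of all genes, where a change may not have been detectable. Of those in MEFs, Ccl8 and Ccl9 were nevertheless called.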
